A study of Mus musculus with 6 samples.

Results

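This account covers 36 genes of the mouse endoplasmic reticulum (ER) that fold, check and remove secretory proteins or that sense unfolded protein there. They were chosen by symbol, as 8 lumenal chaperones and cofactors, 4 J proteins, 4 disulfide isomerases, 9 genes of ER-associated degradation, 3 of the translocon, 5 sensors and effectors of the unfolded protein response and 3 KDEL receptors. The deposited table holds 35 of them under the given symbol and Manf under its older symbol Armet, out of 31879 genes with isoforms used. The polyA RNA came from mouse embryonic stem cells of the clonal line TT-FHAgo2. In these cells Argonaute 2 (Ago2), the main carrier of microRNAs to their target transcripts, is expressed under doxycycline. All cells had been kept in 0.1 µg/mL doxycycline. One group received 2.5 µg/mL over 48 h, a dose that the labels equate with wild-type Ago2. The other was without the drug for 96 h, and each group has 2 strand-specific libraries. The arms thus differ in Ago2, in the drug and in hours, and these cannot be told apart. Nothing in the labels tells whether the libraries of a group are separate cultures. The p-values therefore measure only the spread between these libraries, which may be technical.

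Proteins of the secretory pathway enter the ER through the Sec61 channel. They are folded there by Hsp70- and Hsp90-type chaperones, by the lectins calnexin and calreticulin and by disulfide isomerases. Chaperones that escape to the Golgi carry a KDEL-type signal and are brought back by KDEL receptors, while misfolded proteins are sent to the cytosol for destruction by the proteasome. When unfolded protein builds up, the membrane sensors Ern1 (IRE1), Atf6 and Eif2ak3 (PERK) start the unfolded protein response, in which Xbp1 and Atf6 bind ER stress elements (ERSE) in the promoters of chaperone genes. An ERSE is CCAAT and CCACG held apart by 9 bases. Its second form, ERSE-II, is ATTGG and CCACG held apart by 1 base.

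These elements were searched for on both strands of the RefSeq promoter table (build GRCm38.p6), which gives 250 bases before and 50 after each start site and has an entry for 30 of the 36 genes. They are printed because they stand in a larger share of these promoters than of promoters at large, and several of these genes are those from which the element was described. The ERSE was found in 9 of the 30 promoters (30%), against 37 of all 27025 symbols with a promoter (0.137%) and 19 of 9365 tested symbols (0.203%). ERSE-II was found in 2 of the 30 (6.67%), against 0.0444% of all symbols and 0.0854% of tested symbols. Each element is written 5′ to 3′ on the strand that reads CCAAT or ATTGG first, with both boxes in capitals.
Calr (chr8:84847075-84847093): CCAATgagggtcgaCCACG
Canx (chr11:50325800-50325818): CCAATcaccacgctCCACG
Creld2 (chr15:88819520-88819538): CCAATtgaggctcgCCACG
Derl3 (chr10:75893242-75893260): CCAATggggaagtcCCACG
Dnajc3 (chr14:118937827-118937845): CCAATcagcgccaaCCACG
Hsp90b1 (chr10:86705533-86705551): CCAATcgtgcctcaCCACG
Hsp90b1 (chr10:86705638-86705656): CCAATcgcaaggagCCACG
Hspa5 (chr2:34772025-34772043): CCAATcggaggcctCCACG
Pdia6 (chr12:17266491-17266509): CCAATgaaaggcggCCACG
Syvn1 (chr19:6046532-6046550): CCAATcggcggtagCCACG
Dnajb11 (chr16:22857852-22857862): ATTGGcCCACG
Herpud1 (chr8:94386377-94386387): ATTGGgCCACG
The 10 matches to the ERSE begin between 44 nt (Syvn1) and 212 nt (the second of Hsp90b1) before the start site. Those of Calr, Creld2, Derl3 and the nearer of Hsp90b1 lie on the strand opposite to the gene. The ERSE-II match of Herpud1 begins 52 nt before its start site, and that of Dnajb11 begins 7 nt after it.

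Hspa5 is the best-known gene with an ERSE, and Kdelr3 had the largest change of the 36 genes. Their 250 bases before the start site are printed for that reason, on the strand of the gene, with the ERSE of Hspa5 and the XBP1-type element TGACGTGG of Kdelr3, which reads CCACGTCA on this strand, in capitals.
Hspa5 promoter (chr2:34771840-34772089, plus strand): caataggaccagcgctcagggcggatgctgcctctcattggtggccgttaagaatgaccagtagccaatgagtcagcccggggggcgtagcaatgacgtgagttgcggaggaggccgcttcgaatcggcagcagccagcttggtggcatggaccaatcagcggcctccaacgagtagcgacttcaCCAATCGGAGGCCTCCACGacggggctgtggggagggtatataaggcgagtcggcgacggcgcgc
Kdelr3 promoter (chr15:79516158-79516407, plus strand): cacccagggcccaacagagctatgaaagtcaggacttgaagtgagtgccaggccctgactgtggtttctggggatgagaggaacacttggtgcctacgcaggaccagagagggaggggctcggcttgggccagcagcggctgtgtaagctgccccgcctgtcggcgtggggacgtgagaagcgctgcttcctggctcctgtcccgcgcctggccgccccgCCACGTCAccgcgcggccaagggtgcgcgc
TGACGTGG was found in this promoter alone among the 30 (3.33%), against 0.714% of all symbols and 0.982% of tested symbols. The box CCACG by itself was found in 23 of the 30 (76.7%) and in 53.3% of tested symbols, and CCAAT in 22 (73.3%) and 43.4%. A match describes the letters of the window and is not a measurement of binding.

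Expression is given as FPKM, fragments scaled to the length of an isoform and to the fragment total of the library. It was summed over the isoforms of a gene, so levels are per length and can be set side by side between genes. Values are listed with doxycycline (libraries numbered 0 and 1 in the files) and then without it (0 and 1), and every log2 change is the difference off minus on the drug of log2(FPKM + 0.5). That scale understates changes of genes with low values. Means carry the SD of n = 2 libraries, and p-values are from limma, adjusted by the Benjamini-Hochberg method over 13268 genes.

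The libraries held the markers of embryonic stem cells at a summed 4284 to 4993 FPKM, of which Nanog rose (log2 change 0.54) and Zfp42, Utf1 and Tcl1 fell (-0.49, -0.61 and -0.48). Of the lists for other cell types, fibroblast markers summed to 15.6 and 14.7 FPKM with the drug and 21.7 and 21.9 without (2 of 10 tested, Col3a1 and Postn at 0). Most of that sum was Fbln1 alone, which rose (12.9, 12.3, 18.9 and 18.9 FPKM). Endoderm markers summed to 28.1 and 29.9 with the drug and 18.5 and 22.2 without (2 of 12 tested, Afp at 0), where Lama1 fell and Gata4 rose. Trophoblast markers summed to 24.3 and 24.6, then 30.9 and 31.8 (Plet1 rose and Ascl2 fell), mesoderm markers to 2.07 and 2.11, then 3.06 and 2.88 (Kdr rose), and neural markers to 69.7 and 74.1, then 63.9 and 76.7 (Nes rose). The part of any of these in the changes of the ER genes was not tested. In bulk RNA, fewer cells of a type and less RNA per cell cannot be told apart. Ago2 itself measured 35.2, 36.7, 28.7 and 28.8 FPKM, a fall of -0.32 (SE 0.08, limma adjusted p = 0.0293). Of the depths, those of the libraries numbered 1 were recovered from the size of their lowest values, at 46.6 M (with) and 47.3 M (without) fragments.

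All 36 genes passed the minimum of 1 FPKM and were tested. Off the drug, 14 of them rose (38.9%) and 3 fell (8.33%), while 19 did not pass the test. Over all genes tested, 19.4% rose and 20.9% fell. Both libraries without doxycycline lay above both with it for 24 of the genes and below for 7, against 33.1% and 40.0% of all genes. Their median log2 change was 0.19, with -0.06 over all genes tested, and their changes ran from -2.07 (Kdelr3) to 0.96 (Dnajb9). In sum, the 36 genes measured 2144 ± 100 FPKM with the drug (2073 and 2215) and 2547 ± 121 without (2461 and 2632).

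The changes were mostly small, and the calls depend on having all 4 libraries. When either doxycycline library was left out, the share of the 36 genes called higher was no larger than that of all genes tested. When either library off the drug was left out instead, that share was still the larger. With TPM, which rescales each library to an equal total, the median of all genes shifted from -0.06 to 0.10. The split of all calls went from 2578 higher and 2773 lower of 13268 genes tested to 3941 and 1883 of 14817. For the 36 genes that split was 21 and 2. The calls of Dnajb9, Syvn1 and Kdelr3 held in all 15 alternatives tried, and those of Hyou1, Dnajc3, Pdia3 and Sel1l in 13 of 15.

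**Figure D1:**
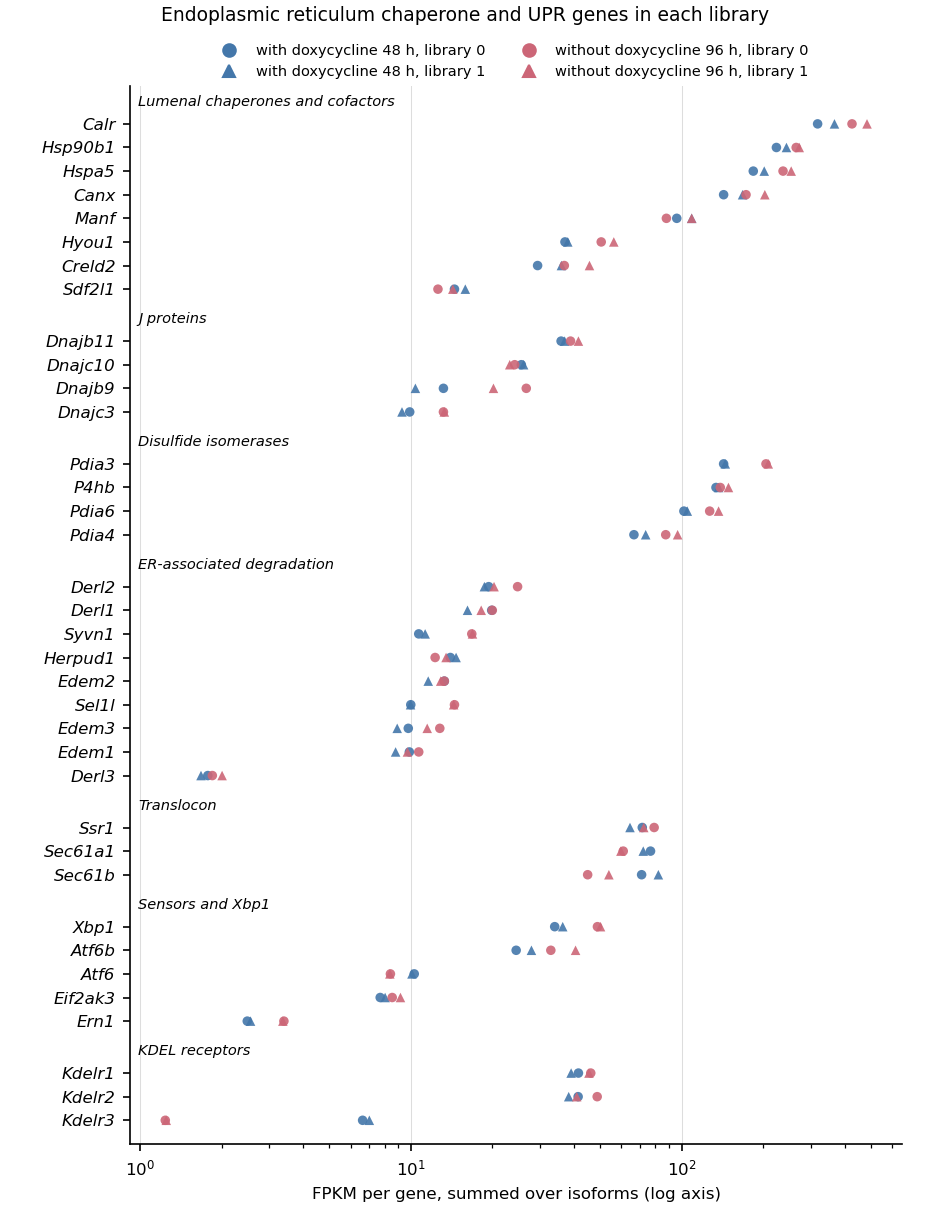
FPKM per gene (log axis) of the 36 genes in each of the 4 libraries, by role; circles and triangles are the libraries numbered 0 and 1, blue with and red without doxycycline. Levels span from Derl3 at 1.68 to 2.01 FPKM to Calr at 318 to 484 FPKM, and the red points of Kdelr3 stand far to the left of the blue.

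Of the 8 lumenal chaperones and cofactors, 3 rose and 5 did not pass the test. Their median log2 change was 0.30. Calr (calreticulin, the soluble lectin chaperone that holds glycoproteins during folding) was the most abundant of the 36 genes. It measured 318, 367, 426 and 484 FPKM, and both libraries off the drug were above both on it. Calr rose by 0.41 (SE 0.12, limma adjusted p = 0.0489). Hspa5 (BiP, the Hsp70 of the ER lumen, which also holds the sensors inactive; chr2:34627490-34632051, plus strand, NCBIM37) measured 184, 202, 237 and 254 FPKM. Its groups did not overlap either, with means of 193 ± 13.0 and 246 ± 12.2 FPKM, a rise of 0.35 (SE 0.10, limma adjusted p = 0.0420). Hyou1 (the large Hsp70-type chaperone that exchanges nucleotide on BiP) stood at 37.1, 38.0, 50.5 and 56.2 FPKM. The gap between its groups was wide against their spread, and it rose by 0.50 (SE 0.09, limma adjusted p = 0.0131).

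Hsp90b1 (GRP94, the Hsp90 of the ER) was the second most abundant, at 224, 244, 265 and 272 FPKM. Its libraries were ordered as those of BiP, but the log2 change of 0.20 (SE 0.09) missed the threshold (limma adjusted p = 0.142). Canx (calnexin, the membrane-bound lectin chaperone) showed 143, 168, 173 and 203 FPKM, and Creld2 (a disulfide isomerase-like stress protein) 29.4, 36, 36.9 and 45.7. In both, the lowest library off the drug was only just above the highest on it (log2 changes of 0.27 and 0.33, limma adjusted p = 0.154 and 0.139). Sdf2l1 (a partner of BiP and its J proteins) was lower off the drug in both libraries, at 14.5, 15.9, 12.6 and 14.3 FPKM (log2 change -0.17, limma adjusted p = 0.233). Manf (a secreted stress protein that binds BiP) measured 96.0, 109, 87.9 and 109 FPKM, with overlapping groups. Its locus in the assembly (chr9:106740503-106794310) spans longer isoforms than the 951-nt form that holds 50.1% of its FPKM, so the division of reads there is uncertain. The calls of Hspa5 and Calr were lost without any 1 of the 4 libraries (limma adjusted p from 0.0748 to 0.284 and from 0.0610 to 0.280). That of Hyou1 was lost without the doxycycline libraries numbered 0 (0.0714) or 1 (0.0612).

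J proteins switch on the ATPase of BiP and choose its substrates. Dnajb9 (ERdj4, which brings BiP to the sensor Ern1 and to proteins bound for degradation; chr12:45306266-45311127, minus strand, NCBIM37) had the largest rise of the 36 genes. It measured 13.2 and 10.4 FPKM with doxycycline and 26.7 and 20.2 without. The library numbered 0 was the higher in each condition, and the drop between numbers was smaller than that between conditions. The means of 11.8 ± 1.99 and 23.5 ± 4.57 FPKM differ by a ratio of 1.99 (log2 change 0.96, SE 0.18, limma adjusted p = 0.0138). Both assembled isoforms reached 1 FPKM, and the 1865-nt form alone rose from 9.43 and 6.97 to 20.1 and 15.9 FPKM.

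Dnajc3 (p58IPK, a cochaperone of BiP and an inhibitor of Eif2ak3) measured 9.91, 9.28, 13.2 and 13.3 FPKM. The libraries within a condition differed by far less than the conditions, and it rose by 0.45 (SE 0.08, limma adjusted p = 0.0141). Without the doxycycline library numbered 1 this call was lost (0.0882). Dnajb11 (ERdj3, an abundant J protein that binds unfolded chains with BiP) stood at 35.9, 37.0, 38.9 and 41.6 FPKM, higher off the drug in both libraries by a margin that did not pass (log2 change 0.14, limma adjusted p = 0.224). Dnajc10 (ERdj5, a J protein that reduces disulfides ahead of degradation) stood at 25.6, 26.1, 24.2 and 23.2 FPKM, lower off the drug (log2 change -0.13, limma adjusted p = 0.253) but at 0.03 on the TPM scale. Of the 4 J proteins 2 rose, with a median log2 change of 0.29, and the difference between them was not tested.

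The disulfide isomerases make and rearrange the disulfide bonds of folding proteins, and 3 of 4 rose. Pdia3 (ERp57, which works on glycoproteins held by calnexin and calreticulin) measured 143 and 145 FPKM with doxycycline and 205 and 209 without. Its groups were tight and far apart, at 144 ± 1.83 and 207 ± 2.85 FPKM (log2 change 0.52, SE 0.08, limma adjusted p = 0.00907). Pdia4 (ERp72) rose from 66.7 and 73.7 to 87.4 and 96.7 FPKM (log2 change 0.39, SE 0.10, limma adjusted p = 0.0337). Pdia6 (P5, a partner of BiP that also acts on the sensors) rose from 102 and 105 to 127 and 137 FPKM (log2 change 0.35, SE 0.09, limma adjusted p = 0.0313). P4hb (the founding disulfide isomerase, also a subunit of collagen prolyl hydroxylase) measured 134, 137, 139 and 149 FPKM, above in both libraries off the drug by a margin that did not pass (log2 change 0.08, 95% interval -0.14 to 0.30, limma adjusted p = 0.471). With the drug P4hb and Pdia3 were at close levels, and without it Pdia3 was clearly the higher. The call of Pdia3 was lost without the doxycycline libraries numbered 0 (0.0733) or 1 (0.0643). That of Pdia6 was lost without any 1 library (0.0553 to 0.204). That of Pdia4 was lost without any library other than the number 0 off the drug (0.0920 to 0.206).

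**Figure D2:**
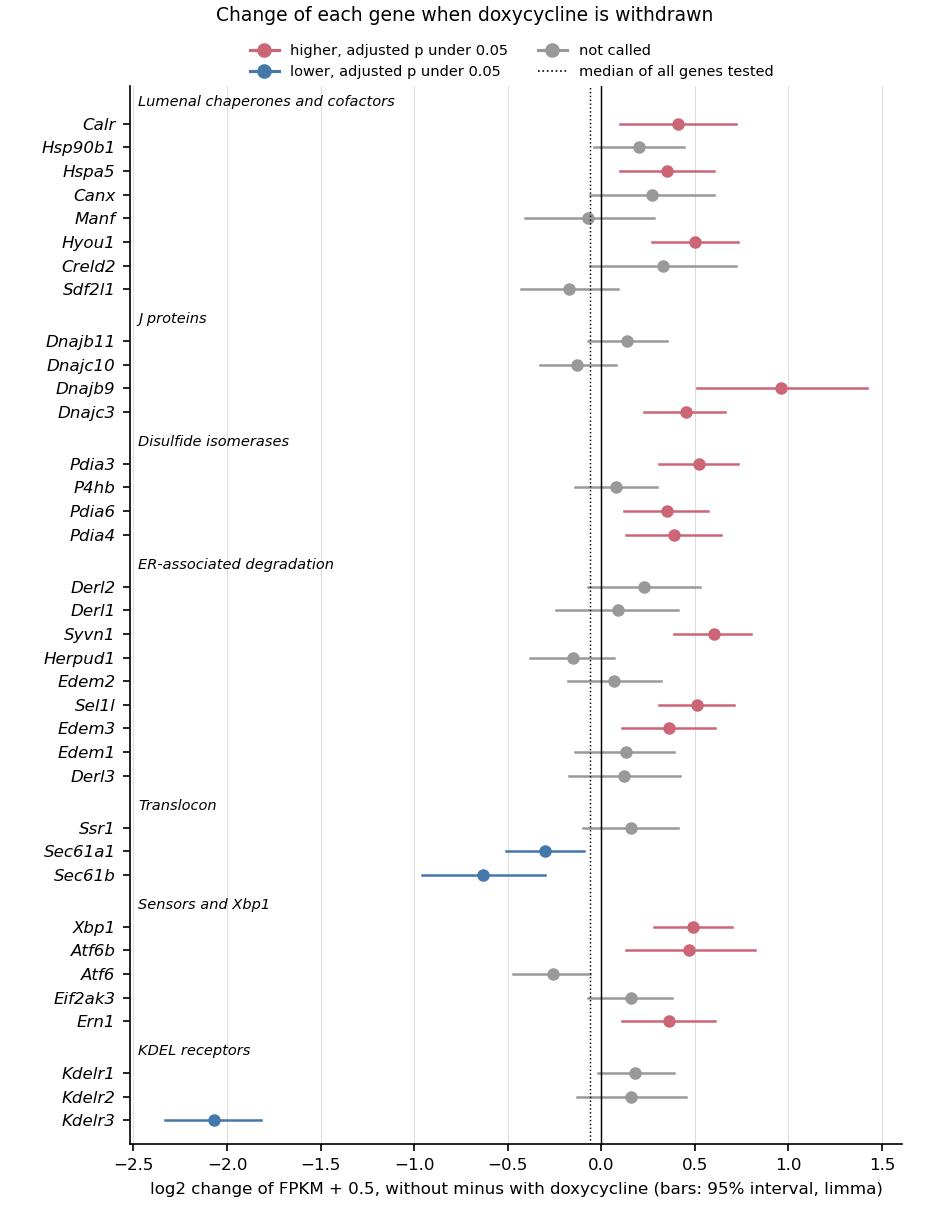
Log2 change of each gene (without minus with doxycycline, FPKM + 0.5) with its 95% interval from limma, by role; red and blue mark adjusted p under 0.05, and the dotted line is the median of all genes tested at -0.06. Most chaperones, isomerases and degradation genes lie to the right of that line, and Kdelr3 stands alone at -2.07.

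In ER-associated degradation, lectins pick out misfolded glycoproteins, and a membrane ubiquitin ligase and its partners pass them to the cytosol. The core of that ligase rose: Syvn1 (Hrd1, the ligase itself; chr19:6046576-6053712, plus strand, NCBIM37) and Sel1l (its adaptor). Syvn1 measured 10.7 and 11.3 FPKM with doxycycline and 16.8 and 16.9 without. The 2 libraries of a condition were nearly equal, and the change of 0.60 (SE 0.08, limma adjusted p = 0.00628) was the largest rise after Dnajb9. Sel1l measured 10.0, 9.98, 14.5 and 14.4 FPKM, a rise of 0.51 (SE 0.08, limma adjusted p = 0.00870). Both stood at near-equal levels within each condition, about 10 to 11 FPKM on the drug and 14 to 17 off it. Edem3 (a mannosidase-like protein that marks glycoproteins for degradation) rose from 9.79 and 8.91 to 12.8 and 11.5 FPKM (log2 change 0.36, SE 0.10, limma adjusted p = 0.0400). Without any 1 library the call of Edem3 was lost (0.0555 to 0.197), whereas those of Syvn1 and Sel1l held.

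Edem1 and Edem2, of the same family as Edem3, did not separate the groups. Edem1 measured 9.88, 8.79, 10.7 and 9.72 FPKM and Edem2 13.3, 11.6, 13.3 and 12.9 (limma adjusted p = 0.369 and 0.602). Whether Edem3 differs from them in its response was not tested. The Derlins, membrane proteins of the retrotranslocation complex, did not pass the test either. Derl1 measured 19.9, 16.2, 20.0 and 18.2 FPKM, Derl2 19.4, 18.7, 24.8 and 20.3, and Derl3 1.78, 1.68, 1.85 and 2.01 (limma adjusted p = 0.611, 0.174 and 0.429). Derl3 was the lowest of the 36 genes, ranked 11666 of 13268. Herpud1 (Herp, which scaffolds the ligase complex) was lower off the drug in both libraries, at 14.0, 14.7, 12.3 and 13.5 FPKM (log2 change -0.15, SE 0.09, limma adjusted p = 0.221). Its change was 0.00 with TPM and 0.08 for its most abundant isoform alone. Altogether 3 of the 9 degradation genes rose and 6 did not pass, with a median log2 change of 0.13.

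Of the 3 translocon genes, 2 fell. Sec61b (the small beta subunit of the Sec61 channel) measured 71.2 and 82.1 FPKM with doxycycline and 45.0 and 53.9 without. Both libraries off the drug were well below both on it, with means of 76.7 ± 7.69 and 49.4 ± 6.30 FPKM, a fall of -0.63 (SE 0.13, limma adjusted p = 0.0179). Without the doxycycline library numbered 1 this call was lost (0.0730). Sec61a1 (the pore-forming alpha subunit) measured 76.8, 72.2, 60.9 and 59.7 FPKM, a fall of -0.30 (SE 0.08, limma adjusted p = 0.0384). That call was among the least firm: it was lost without any 1 library (0.0967 to 0.268), with both conditions set to an equal median (0.0666) and with TPM (log2 change -0.14, 0.266). Ssr1 (a subunit of the translocon-associated complex) measured 71.6, 64.5, 79.2 and 72.5 FPKM, above in both libraries but by a margin within the error (log2 change 0.16, limma adjusted p = 0.253).

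Of the 5 sensor and effector genes, 3 rose. Ern1 (IRE1, a kinase and nuclease that splices the Xbp1 transcript) was low, at 2.49, 2.56, 3.40 and 3.37 FPKM. The libraries of a condition were close together, and Ern1 rose by 0.36 (SE 0.10, limma adjusted p = 0.0383), a call lost without any 1 library (0.107 to 0.152). Atf6b (a membrane-bound transcription factor related to Atf6) measured 24.5, 27.9, 32.9 and 40.6 FPKM, with the wider spread off the drug. It rose by 0.47 (SE 0.13, limma adjusted p = 0.0421), a call lost without any library other than the number 0 off the drug (0.0615 to 0.158). Atf6 (the factor that is cut and released from the membrane under stress) went the other way without reaching the threshold, at 10.3, 10.1, 8.41 and 8.37 FPKM (log2 change -0.26, SE 0.08, limma adjusted p = 0.0524). The 2 groups of Atf6 were tight and apart. It passed with a minimum of 5 FPKM for testing (0.0496), but in only 2 of the 15 alternatives in all. Over these 15 its log2 change ran from -0.32 to -0.11. Eif2ak3 (PERK, the kinase that slows translation and favours Atf4) measured 7.71, 8.04, 8.54 and 9.16 FPKM (log2 change 0.16, limma adjusted p = 0.204).

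Xbp1 (the transcription factor made active by Ern1; chr11:5416802-5425995, plus strand, NCBIM37) measured 34.0 and 36.4 FPKM with doxycycline and 48.9 and 50.2 without. The groups did not overlap, at 35.2 ± 1.69 and 49.5 ± 0.913 FPKM, and it rose by 0.49 (SE 0.08, limma adjusted p = 0.0108). The call was lost without the doxycycline library numbered 0 (0.0803), for the most abundant isoform alone (0.175) and with isoforms of class = only (0.0634). Ern1 cuts a stretch of 26 nt out of the Xbp1 transcript, which shifts the reading frame and yields the active factor. The stretch (chr11:5424285-5424310, NCBIM37, in exon 4 of the 2129-nt isoform) is printed because the deposited isoforms differ by it. It is in capitals between flanks of 30 nt from the same transcript in GENCODE M21.
Xbp1 stretch: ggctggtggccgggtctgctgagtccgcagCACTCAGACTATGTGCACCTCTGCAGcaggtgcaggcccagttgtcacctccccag
Isoforms that splice out these bases summed to 19.5 and 22.0 FPKM with doxycycline and 24.4 and 30.5 without. Isoforms that keep them summed to 12.4 and 12.5 FPKM with it and 19.7 and 16.6 without. Both forms were thus higher off the drug in both libraries. The isoforms of 987 nt and 2159 nt, which end before the stretch or start their exon after it, were counted with neither, at a summed 2.09, 1.91, 4.79 and 3.09 FPKM. The proportion of removed to kept forms did not separate the groups. Of both together, the form with the stretch spliced out made up 61.1% and 63.8% with doxycycline and 55.3% and 64.7% without (62.4 ± 1.86% and 60.0 ± 6.63%). Most of that form was 1 isoform of 1757 nt, at 18.5, 22.0, 23.5 and 30.5 FPKM. Reads that cross the stretch tell the forms apart, but some isoforms that keep it also differ elsewhere. Those of 1812 and 1677 nt start in an exon of their own, and that of 906 nt keeps the last intron. No assembled isoform with these features lacks the stretch, so their FPKM counted as kept whatever the reads at the stretch. They measured 0.497, 4.63 and 1.29 FPKM with doxycycline and 2.51, 5.11 and 2.06 without. Cufflinks apportioned the reads between isoforms, so the share is an estimate of the authors' software and depends on the assembly.

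**Figure D3:**
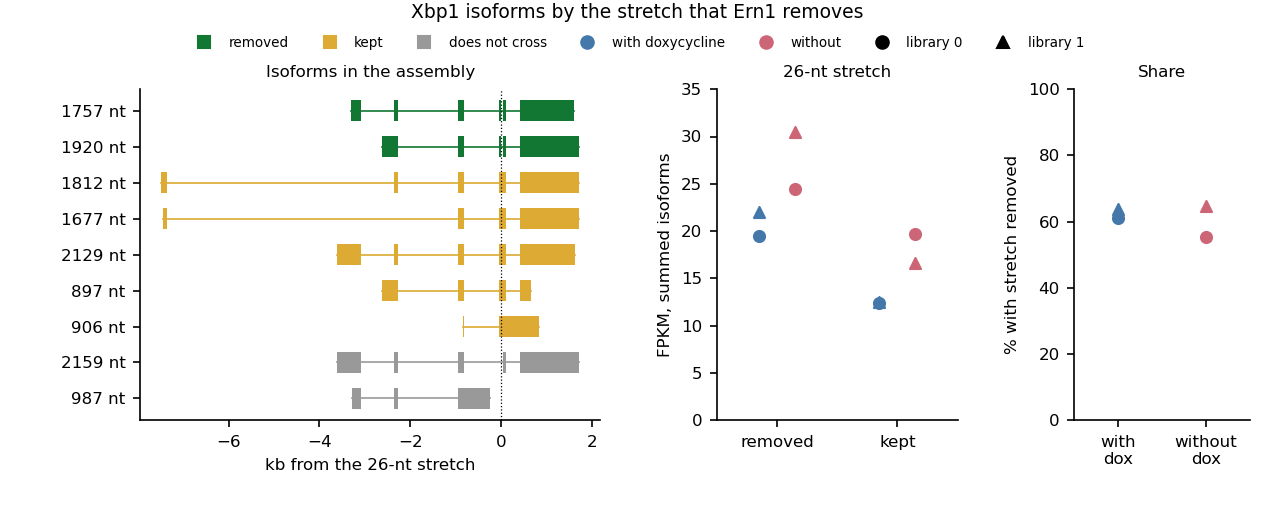
Left, the assembled Xbp1 isoforms by length, with exons as boxes against distance in kb from the 26-nt stretch, in green where it is removed, yellow where kept and grey where not spanned; middle, summed FPKM of each form per library; right, percent of the FPKM of both forms in which it is removed. Both forms are higher without doxycycline, and the shares of 55.3% to 64.7% without the drug enclose those of 61.1% and 63.8% with it.

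The KDEL receptors return escaped chaperones from the Golgi, and they are 3 related genes. Kdelr1 measured 41.6, 39.1, 46.2 and 45.5 FPKM (log2 change 0.18, limma adjusted p = 0.128) and Kdelr2 41.5, 38.3, 48.8 and 41.0 (0.16, limma adjusted p = 0.300). Neither passed the test. Kdelr3 (chr15:79346855-79358167, plus strand, NCBIM37), by contrast, measured 6.64 and 7.03 FPKM with doxycycline and 1.24 and 1.25 without. The 2 libraries of each condition were almost equal, and the groups were far apart, at 6.83 ± 0.274 and 1.24 ± 0.00723 FPKM. Kdelr3 fell by -2.07 (SE 0.10, 95% interval -2.33 to -1.82, limma adjusted p = 0.00159), to a ratio of 0.182. The fall held in each alternative tried, between -2.37 and -1.80, with adjusted p of at most 0.0170. For scale, 3 fragments on a transcript of 2000 nt were worth 0.0353 and 0.0349 FPKM in the libraries numbered 1. The gene has 1 assembled isoform (1395 nt, 5 exons), so the value does not depend on how reads were divided between isoforms. Its share of the summed receptor FPKM went from 7.40% and 8.32% to 1.29% and 1.42%. The sum itself, carried by Kdelr1 and Kdelr2, was 87.1 ± 3.72 FPKM with the drug and 92.0 ± 5.94 without, with overlapping groups. The difference in response between the receptors was not tested.

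Set against the promoter elements, all 9 genes with an ERSE were higher in both libraries off the drug (33.1% of all genes tested), and 5 of them rose (Calr, Dnajc3, Hspa5, Pdia6 and Syvn1; 19.4% of all genes). Their median log2 change was 0.35. Among the 21 genes with a promoter entry and no ERSE, 8 rose (38.1%) and 2 fell (9.52%), with a median of 0.16. Of these 21, 14 were higher in both libraries off the drug and 5 lower. Outside the 36 genes, 10 tested genes hold the same element. Of these 2 rose, 4 were above in both libraries and 4 below, and their median was 0.10. The 2, named after their values were seen, were Spats2l (0.853 to 3.68 FPKM, log2 change 1.62, limma adjusted p = 0.00300) and Alg12, a mannosyltransferase of glycan assembly (4.20 to 5.94 FPKM, 0.46, 0.0281). Of the 2 genes with ERSE-II, Dnajb11 was slightly higher and Herpud1 slightly lower, and neither passed. Kdelr3, which holds TGACGTGG 30 nt before its start site, had the largest fall. The elements were given as a description, and no test of a link between element and change was made.

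The design takes the cells off the drug that drives Ago2, although its measured RNA was 35.9 FPKM on the drug and still 28.7 off it. That value is a sum per gene and does not tell RNA driven by the drug from any other Ago2 RNA. The longest annotated 3′ untranslated regions of GENCODE M21 were searched for 7-base matches to the seed (bases 2 to 8) of 6 microRNAs, chosen after the files had been seen. The most relevant to embryonic stem cells is miR-291a-3p, of the miR-290 cluster that dominates these cells, printed with its seed in capitals.
miR-291a-3p: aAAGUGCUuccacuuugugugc
Its match was found in 7 of the 36 genes (19.4%; Pdia6, Derl2, Ssr1, Ern1, Atf6, Atf6b and Kdelr2), against 17.4% of 11485 tested genes with such a region. Of these 7, 3 rose (42.9%), namely Pdia6, Ern1 and Atf6b, against 38.9% of all 36 and 19.4% of all genes tested. Both libraries off the drug lay above both on it for 5 of the 7 and below for 1 (Atf6). The median log2 change was 0.23, against 0.19 over all 36. The corresponding shares were, of the 36 genes and of the tested genes, for miR-17-5p 19.4% and 14.4%, for miR-15a-5p 22.2% and 24.6%, for miR-92a-3p 5.56% and 7.26%, for miR-19b-3p 8.33% and 13.1% and for let-7a-5p 11.1% and 10.6%. Of the genes with the clearest rises, Dnajb9 holds matches to miR-17-5p, miR-92a-3p and miR-19b-3p, and Syvn1 and Sel1l to miR-15a-5p. Dnajc3 holds those to miR-19b-3p and let-7a-5p, while Hyou1 and Pdia3, which also rose, hold none of the 6. These genes were named for their rises. Of all 8 genes with the miR-15a-5p match, 4 rose and 1 fell (Sec61a1, log2 change -0.30). Of the 7 with the miR-17-5p match, 3 rose and 0 fell. Whether any of these sites is used was not tested.

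The other genes of these pathways were read as lists of their own, against 19.4% of all genes that rose and 20.9% that fell. Those shares hold for the main setting. Over all genes, TPM gave 3941 higher and 1883 lower of 14817 tested, and equal medians gave 2898 and 2255 of 13268. With any 1 library left out, fewer of all genes were called as well. Of 43 other folding enzymes tested, 8 rose (18.6%) and 3 fell (6.98%), with a median log2 change of 0.17. These were 15 and 2 with TPM and 3 to 5 and 1 to 2 when 1 library was left out. Qsox1 (a sulfhydryl oxidase) rose from 2.57 to 5.17 FPKM and Ero1lb (an oxidase that recharges disulfide isomerases) from 2.82 to 5.40. Dnajb14 (a membrane J protein) rose from 1.36 to 2.35 FPKM (0.61, limma adjusted p = 0.0341). Fkbp11 (a prolyl isomerase of the secretory pathway) fell from 12.3 to 5.18 FPKM (log2 change -1.17, limma adjusted p = 0.00234). Of 36 other degradation genes, 4 rose (11.1%) and 4 fell (11.1%), with a median of 0.05. That balance turned to 12 and 2 with TPM and 7 and 2 with equal medians, and was 3 to 4 and 1 to 2 when 1 library was left out. Os9 (the lectin that delivers glycoproteins to Sel1l and Syvn1) rose from 6.94 and 8.60 to 15.6 and 18.7 FPKM (log2 change 1.09, SE 0.14, limma adjusted p = 0.00592). Erlin1 (an ER membrane scaffold of degradation) rose from 13.0 to 24.7 FPKM and Tmem129 (a ubiquitin ligase) from 2.32 to 4.59, while Ube2g2 (a ubiquitin-conjugating enzyme of this pathway) fell from 13.2 to 8.76.

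Of 29 other genes of translocation, 4 rose (13.8%) and 2 fell (6.90%), with a median log2 change of -0.08. With TPM 7 rose and 2 fell. With any 1 library left out, all or most of the rises were lost, and the falls called then outnumbered the rises. The 2 that fell in the main setting were Srp9 (40.2 to 20.9 FPKM, -0.93) and Srp19 (70.6 to 45.1 FPKM, -0.64), protein subunits of the signal recognition particle. Srpr, its receptor, rose from 53.9 to 72.6 FPKM (0.43, limma adjusted p = 0.0134). Serp2 (a translocon-associated stress protein) measured 2.48 and 1.51 FPKM on and off the drug (-0.56, limma adjusted p = 0.0915). Of 29 other genes of the unfolded protein response, 3 rose (10.3%) and 5 fell (17.2%), with a median of -0.04. These were 8 and 3 with TPM and 1 to 3 and 2 to 5 when 1 library was left out. Creb3l2 (a membrane-bound factor related to Atf6) rose from 1.39 to 3.01 FPKM and Map3k5 (a stress kinase downstream of Ern1) from 5.12 to 9.14. Atf4, the factor whose translation Eif2ak3 favours, fell from 259 and 284 to 163 and 180 FPKM (log2 change -0.66, SE 0.10, limma adjusted p = 0.00890), and Cebpb from 8.23 to 4.63 FPKM.

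The targets of Atf4 in amino acid supply and stress were mostly lower off the drug. Of 24 tested, 19 fell (79.2%, against 20.9% of all genes), with a median log2 change of -0.79. The largest falls were those of Chac1 (a glutathione-degrading enzyme, 12 to 2.61 FPKM, -2.00), Phgdh (52 to 20.3 FPKM, -1.33) and Mthfd2 (73.9 to 31.8 FPKM, -1.20), of serine and one-carbon synthesis, and Vldlr (2.49 to 0.836 FPKM, -1.16). When 1 library was left out 13 to 19 of the Atf4 targets fell. No test compared the lists.

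**Figure D4:**
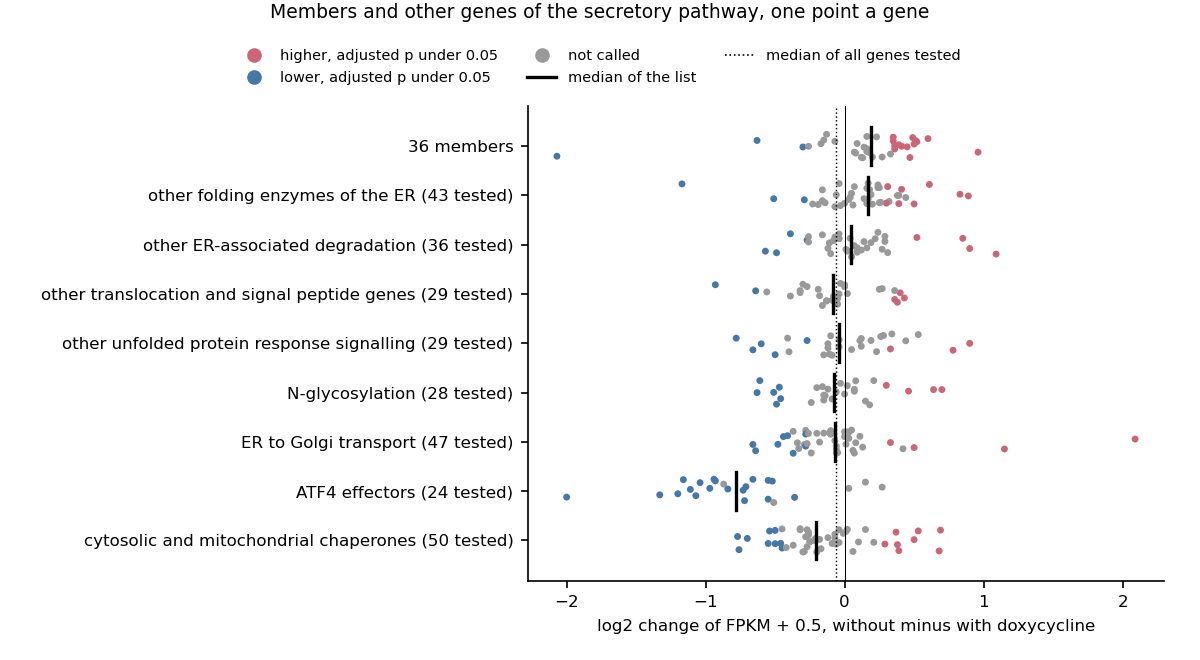
Log2 change of every tested gene (without minus with doxycycline, FPKM + 0.5), 1 point a gene, for the 36 genes and 8 lists of related genes; red and blue mark limma adjusted p under 0.05, thick bars are list medians and the dotted line is the median of all genes tested. The 36 genes have a median of 0.19, the other folding enzymes 0.17 and the Atf4 effectors -0.79.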

How the data were processed

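The authors deposited FPKM per isoform. The submitters' processing notes name TopHat2 2.0.9, Cufflinks 2.1.1 and the build NCBIM37. The handling of reads that map to several places is not given in the sources used here, so genes with near-identical copies or overlapping neighbours are uncertain. Of 181027 deposited isoforms, 141569 were used: named, at least 200 nt long and of class = or j (matching, or sharing a junction with, a known transcript). All 221 isoforms of the 36 genes were among them, and 98 reached 1 FPKM. Isoforms under 200 nt held 98.9% to 99.6% of the summed FPKM of a library and were left out. Dates had replaced 25 symbols, which were restored.

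FPKM was summed per gene. A gene was tested if its mean reached 1 FPKM on or off the drug. The test was limma 3.58.1 with a trend on log2(FPKM + 0.5), run in R 4.3.3, with 2 residual degrees of freedom and 3.1 from the prior. It was two-sided, at 0.05 after Benjamini-Hochberg adjustment. The fit was tested on simulated data. The column numbers 0 and 1 could not be matched to the labels' replicates. The low FPKM values deposited for the libraries numbered 1 were whole reads for 96.0% and 96.4% of values within 0.1 read (chance 20%), and for those numbered 0 for 41.8% and 40.1%, so their depth is unknown. The 36 genes, the related lists and the markers were chosen with earlier results of these data known. The rule for named genes took all 36, Ago2, the marker lists and, of each related list, the 4 tested genes with the largest absolute log2 change. Python 3.11.15 with pandas 2.3.3, numpy 2.4.6 and matplotlib 3.10.9 did the rest. The spike-in samples were not analysed here.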

Additional observations from a re-analysis of the deposited data

How the results depend on the processing

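Of the 36 genes, 14 were called higher and 3 lower. The higher count fell to 7 with no filter on low values, 4 with the most abundant isoform alone, 5 with class = isoforms only and 9 with isoforms of any length and class, and ran from 4 to 9 when 1 library was left out. The lower count was 1 with no filter and 1 to 2 when 1 library was left out. The library number shared by both conditions was used as a replicate block in a further fit, which called 20 genes higher and 5 lower, and 3607 and 4516 of all genes. The libraries with the same number shared more than the number, as the correlation of their deviations was 0.464. Their low values were also alike, whole reads for 41.8% and 40.1% in number 0 and for 96.0% and 96.4% in number 1. What the number stands for is not given in the labels, and with only 2 pairs the main fit did not use this pairing. It therefore counts any difference between the numbers as error. The remaining settings (pseudocounts of 0.1 and 1, a minimum of 5 FPKM, equal medians, TPM, no trend) gave 12 to 21 higher and 2 to 4 lower. Over all genes the calls were 1046 higher and 977 lower with the most abundant isoform, 1266 and 1299 with class = only, and between 1700 and 1974 higher and 1318 and 2365 lower with 1 library left out.

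The genes called kept their direction under all 15 alternatives (Ern1 under its 14). Some that were not called turned: Manf to 0.09 with TPM and 0.02 with its most abundant isoform, Dnajc10 to 0.03 with TPM, and Herpud1 to 0.00 with TPM and 0.08 with its most abundant isoform. With 1 library left out, Manf ran from -0.22 to 0.09, Edem2 from -0.03 to 0.17 and Derl1 from -0.06 to 0.23. The cause of these shifts was not tested. In such fits the lone library is assumed to vary like the others. The depth behind the values is known for the libraries numbered 1 alone.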

Other observations

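A list meant for chaperones of the cytosol and mitochondria was chosen by symbol, without a check of where each protein lies. It had a median log2 change of -0.21 over 50 tested genes. Of these 8 rose (16.0%) and 9 fell (18.0%), against 19.4% and 20.9% of all genes. When 1 library was left out 2 to 3 rose and 2 to 10 fell. Pfdn4 (a prefoldin subunit, 85.6 to 49.9 FPKM, -0.77), Dnajc2 (a ribosome-associated J protein, 68.7 to 40.2 FPKM, -0.76) and Bag1 (a cochaperone of Hsp70, 53.2 to 32.5 FPKM, -0.70) fell by limma (adjusted p = 0.00347, 0.00784 and 0.0203). Dnaja4, a low J protein, rose from 0.489 to 1.09 FPKM (0.69, adjusted p = 0.0203). Both libraries without doxycycline were below both with it for 28 of the 50 genes, against 40.0% of all genes tested.

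In N-glycosylation, 4 of 28 tested genes rose (14.3%) and 6 fell (21.4%), with a median log2 change of -0.08. The split turned to 7 and 2 with TPM and was 2 to 3 and 1 to 4 when 1 library was left out. Magt1 and Tusc3, alternative oxidoreductase subunits of the oligosaccharyltransferase, both rose (10.2 and 9.78 to 16.7 and 16.4 FPKM, and 32.6 and 35.2 to 52 and 54.1 FPKM; limma adjusted p = 0.00452 and 0.00601). Ost4, its smallest subunit, fell from 63.8 and 74.0 to 41.3 and 48.4 FPKM (limma adjusted p = 0.0171), and Dpm1 (dolichol-phosphate mannose synthase) from 17.5 to 11.2 FPKM. In ER to Golgi transport, 4 of 47 rose (8.51%) and 8 fell (17.0%), with a median of -0.07. These were 5 and 3 with TPM and 2 to 3 and 2 to 5 when 1 library was left out. The coatomer zeta subunits went opposite ways. Copz2 rose from 2.0 and 2.17 to 12.5 and 8.84 FPKM (2.09, SE 0.18, limma adjusted p = 0.00260), while Copz1, the more abundant, fell from 100 and 101 to 62.3 and 66.0 FPKM (-0.64, limma adjusted p = 0.00542). Arfgap3 (a GTPase-activating protein of these vesicles) rose from 4.24 to 10.1 FPKM, and Gosr2 (a SNARE of the Golgi) fell from 27.4 to 17.2.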
